A study of Mus musculus with 4 samples.

Results

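The hormone and steroid-making genes of Leydig cells were followed in RNA-seq libraries of mouse pachytene spermatocytes, the meiotic germ cells in mid-prophase. The set comprised 10 genes of the 55364 listed: Insl3, Star, Cyp11a1, Cyp17a1, Hsd3b1, Hsd3b6, Hsd17b3, Lhcgr, Nr5a1 and Fdx1. They were taken by name, after matching the Ensembl identifiers to GENCODE M21 symbols on GRCm38. All 10 were listed, and all 10 passed the filter on low counts. There were 2 libraries from homozygous Ddx4 knock-in mice (KK) and 2 from wild-type mice (WT). Ddx4 encodes a germline RNA helicase of germ granules. The labels give no strain, age or description of the inserted sequence, and no other allele or agent is named for either genotype. In both genotypes a collagenase step, meant to digest Leydig cells, came before trypsin. The germ cells were then parted in an elutriator, and DAPI staining was used to judge purity. The labels do not state whether replicate libraries stem from different animals, so the p-values measure only the spread between these libraries, which may be technical.

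Leydig cells lie between the seminiferous tubules and are the testis's source of androgen. Luteinising hormone binds its receptor LHCGR and raises cAMP. STAR then carries cholesterol into mitochondria, where CYP11A1, fed with electrons by the ferredoxin FDX1, cuts it to pregnenolone, and 3β-hydroxysteroid dehydrogenases, CYP17A1 and HSD17B3 lead on to testosterone. The nuclear receptor NR5A1 (steroidogenic factor 1) activates many of these genes, and the same cells secrete INSL3, the peptide hormone that guides descent of the fetal testis.

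The total expected count was 17970207 to 19438570 in the KK libraries and 18156099 to 19246124 in the WT libraries. Ddx4 was 5.05-fold lower in KK (edgeR quasi-likelihood test, Benjamini-Hochberg adjusted p = 6.8e-27), so the targeted gene separated the genotypes as labelled. TPM, used for levels below, divides a gene's counts by its length and scales every library to one total; CPM scales counts only. The summed level of 16 pachytene spermatocyte markers was 14242 to 14450 TPM in KK and 14927 to 15033 TPM in WT. Most of it was Ldhc, at 9748 and 9459 TPM in KK and 9688 and 9534 TPM in WT. Of the 16 markers, 1 (6.25%) was called higher and 10 (62.5%) lower in KK, against 22.0% and 21.7% of all genes tested. The summed level of 18 round spermatid markers was 19364 to 19859 TPM in KK and 22026 to 22134 TPM in WT. Of these 18, 9 (50%) were called higher and 8 (44.4%) lower, beside the same 22.0% and 21.7% of all genes tested. Their median log2 fold change was 0.08, with changes in both directions.

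Of the 10 Leydig cell genes, 8 were higher in KK at an adjusted p under 0.05 and 0 were lower. Among all 16571 genes tested, 43.7% passed that test, 22.0% as higher and 21.7% as lower in KK. With scaling by library size in place of TMM factors, 64.2% of all calls were higher, against 50.4%, and the same 8 of the 10 genes were called. The median log2 fold change of the 10 genes was 0.86, against 0.00 for all genes tested. Both KK libraries stood above both WT libraries in TPM for 9 of the 10 genes, an arrangement seen in 34.6% of all genes tested. In bulk RNA, more Leydig cells, more RNA per Leydig cell and expression in other cells cannot be told apart.

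**Figure D1:**
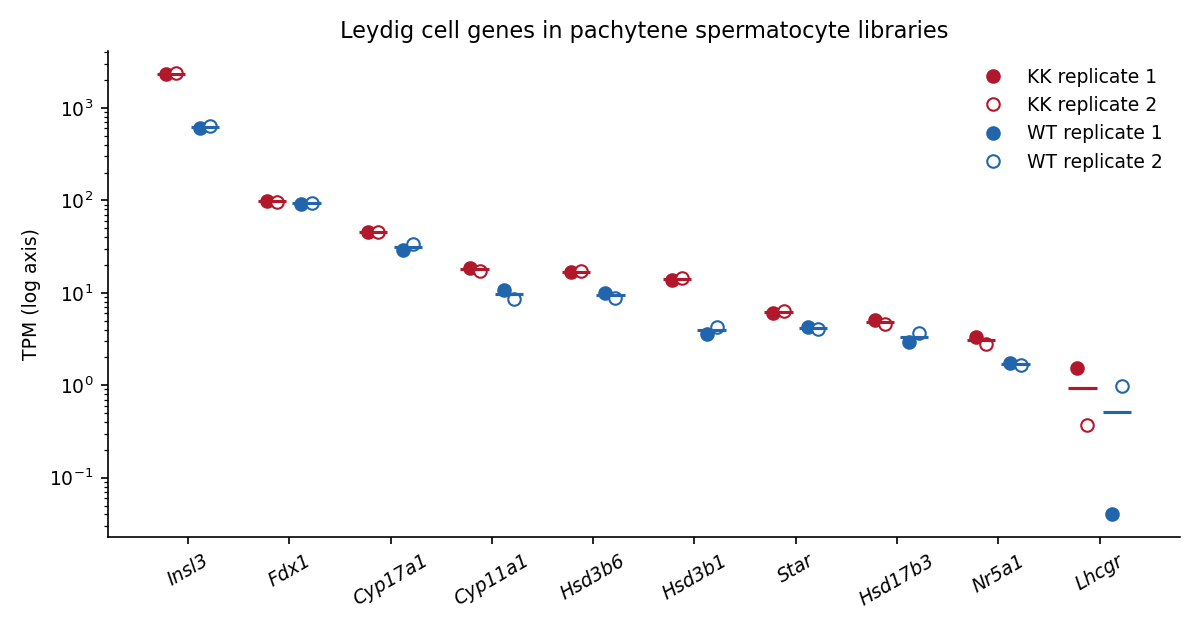
TPM on a log axis for the 10 Leydig cell genes in each library; KK points stand left of WT points, filled for replicate 1 and open for replicate 2. Insl3 lies far above the others, at 2314 and 2399 TPM in KK and 611 and 642 TPM in WT, and only the Lhcgr points of the genotypes overlap.

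The upstream sequences of 4 genes are shown because they span the range of changes: Insl3 and Hsd3b1 changed most, Hsd3b6 is the neighbouring paralogue of Hsd3b1, and Fdx1 changed least. They are RefSeq sequences on GRCm38.p6, written 5′ to 3′ on the gene's strand and, apart from Insl3, ending just before RefSeq's transcription start. Capitals mark CAAGGNC (N is any base), a loose form of the letters that NR5A1 binds, searched on both strands (GNCCTTG on the other). Binding at these sites was not tested. The Insl3 stretch is chr8:71689002-71689213 (plus strand) and omits 38 bases that GENCODE places inside the gene. The others are chr3:98859795-98860044 for Hsd3b1, chr3:98814444-98814693 for Hsd3b6 and chr9:51963603-51963852 for Fdx1, all on the minus strand.
Insl3: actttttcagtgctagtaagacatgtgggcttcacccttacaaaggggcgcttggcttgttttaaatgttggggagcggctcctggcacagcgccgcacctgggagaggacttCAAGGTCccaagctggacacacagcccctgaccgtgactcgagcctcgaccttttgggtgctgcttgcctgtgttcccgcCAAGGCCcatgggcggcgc
Hsd3b1: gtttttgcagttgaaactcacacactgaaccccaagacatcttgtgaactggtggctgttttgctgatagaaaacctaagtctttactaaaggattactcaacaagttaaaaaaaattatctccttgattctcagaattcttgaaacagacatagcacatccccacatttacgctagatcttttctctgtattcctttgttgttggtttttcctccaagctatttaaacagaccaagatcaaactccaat
Hsd3b6: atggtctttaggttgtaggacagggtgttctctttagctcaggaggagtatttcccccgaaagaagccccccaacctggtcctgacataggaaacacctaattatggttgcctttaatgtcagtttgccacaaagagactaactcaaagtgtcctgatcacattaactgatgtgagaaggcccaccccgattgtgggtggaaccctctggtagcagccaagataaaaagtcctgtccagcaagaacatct
Fdx1: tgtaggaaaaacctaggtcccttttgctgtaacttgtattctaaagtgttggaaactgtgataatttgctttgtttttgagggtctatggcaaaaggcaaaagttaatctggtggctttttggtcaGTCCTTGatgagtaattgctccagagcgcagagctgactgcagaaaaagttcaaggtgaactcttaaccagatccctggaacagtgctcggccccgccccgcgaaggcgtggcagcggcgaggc

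RefSeq entries were found for 7 of the 10 genes. Star, Cyp17a1 and Nr5a1 had no entry and were not searched. CAAGGNC occurred in 2 of the 7 genes. In Insl3 it began 137 and 57 bases before RefSeq's start at 71689252, which is 99 and 19 bases before the GENCODE gene start at 71689214. In Fdx1 it lay on the opposite strand, 124 bases before RefSeq's start at 51963602, which is 170 bases before the GENCODE start at 51963556. Of 32851 mouse promoters searched over the same 250 bases, 15.0% held it. The related spelling AAGGNCA, which overlaps CAAGGNC by 6 letters, was in 0 of the members' entries and in 17.5% of all promoters. Insl3 and Fdx1, the 2 genes with CAAGGNC, were at opposite ends of the range of fold changes. The open letter N was T and C in Insl3 but A in Fdx1. Any link between this motif and the folds was not tested.

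Insl3, the hormone gene, was the most abundant of the 10 and had the largest fold change. Its level was 2314 and 2399 TPM in the KK libraries and 611 and 642 TPM in the WT libraries. The expected counts were 11185 and 10491 in KK and 2551 and 2878 in WT. Both KK libraries stood far above both WT libraries, and replicates differed little from each other. Insl3 (chromosome 8, 71689214 to 71690575, plus strand) averaged 563.9 ± 9.84 CPM in KK and 149.5 ± 6.49 CPM in WT (SD, n = 2 each), a 3.77-fold difference (95% interval 3.57 to 3.99; edgeR adjusted p = 9e-25). Ranked by TPM among all listed genes, it stood at place 34 and 31 in the KK libraries and at place 232 and 217 in the WT libraries.

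Insl3 shares sequence with Jak3, a Janus kinase gene that runs in the same direction across it. The second exon of Insl3 (404 bases, 71690172 to 71690575) coincides with exon 25, the last of Jak3-201, so 64.8% of Insl3's 623 exonic bases belong to both. The first exon, 219 bases, lies in the intron between exons 24 and 25 of Jak3. Jak3 was far lower and did not pass the test. It had 308.8 and 295.6 expected counts in KK and 257.7 and 293.9 in WT, a fold of 1.04 (95% interval 0.892 to 1.20; edgeR adjusted p = 0.73). The isoform with the shared exon, Jak3-201, had 211.7 and 231.1 counts in KK and 147.8 and 162.8 in WT. Jak3-202, which has no base in common with Insl3, had 97.03 and 64.4 counts in KK and 109.8 and 131.1 in WT. How reads of the shared exon were divided between the genes is the quantifier's estimate. After that division, the whole of Jak3 came to at most 308.8 counts in any library and Insl3 to at least 2551. A shared-exon read given to the wrong gene would alter both totals, so the totals alone set no limit on such errors.

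**Figure D2:**
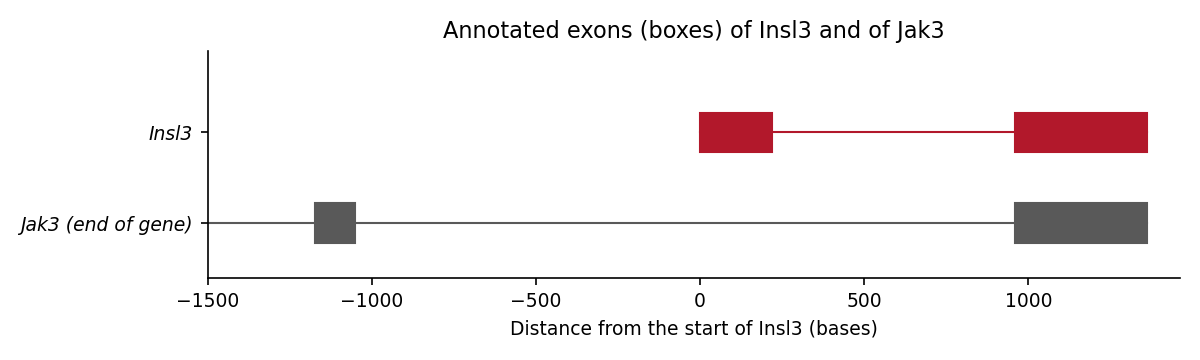
Annotated exons of Insl3 and of the end of Jak3, by distance in bases from the start of Insl3. The second exon of Insl3, 404 bases long, and the last exon of Jak3 cover the same bases, while the first exon of Insl3 lies between exons of Jak3.

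Cholesterol entry and side-chain cleavage are represented by Star, Cyp11a1 and Fdx1. Star (chromosome 8, 25806555 to 25815982, plus strand), whose protein delivers cholesterol to the inner mitochondrial membrane, had 5.99 and 6.32 TPM in KK and 4.27 and 4.07 TPM in WT. Its counts were 353 and 309 in KK and 220 and 222 in WT. The genotypes did not overlap, and Star was 1.41-fold higher in KK (95% interval 1.21 to 1.64; log2 fold change 0.50 ± 0.11 SE; edgeR adjusted p = 0.00038). Its call was lost when log2 TPM was tested with limma (adjusted p = 0.077 and 0.072 at pseudocounts of 1 and 0.1).

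Cyp11a1 (chromosome 9, 58006411 to 58027023, plus strand), the side-chain cleavage enzyme and first committed step to all steroids, stood at 18.68 and 17.26 TPM in KK and at 10.73 and 8.68 TPM in WT. Counts were 518 and 450 in KK and 267 and 226 in WT. Both KK libraries were well above both WT libraries. The difference was 1.85-fold (95% interval 1.58 to 2.16; log2 fold change 0.89 ± 0.11 SE; edgeR adjusted p = 1.2e-07).

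Fdx1, the electron donor of that enzyme, is also used by mitochondrial cytochromes in other tissues. Fdx1 (chromosome 9, 51943306 to 51963556, minus strand) had 98.35 and 96.7 TPM in KK and 92.52 and 92.69 TPM in WT. It was the second most abundant of the 10 genes by TPM, and its KK values lay just above its WT values. The fold of 1.06 did not pass the test (95% interval 0.949 to 1.19; edgeR adjusted p = 0.40). Insl3 and Fdx1 thus stood apart in opposite ways: in TPM, Insl3 was 23.5 and 24.8 times Fdx1 in the KK libraries and 6.61 and 6.93 times Fdx1 in the WT libraries.

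The middle steps, catalysed by the 3β-hydroxysteroid dehydrogenases and CYP17A1, gave unequal folds. Hsd3b1 (chromosome 3, 98852194 to 98859794, minus strand) had 13.93 and 14.5 TPM in KK and 3.56 and 4.31 TPM in WT. Its counts were 305 and 291 in KK and 68 and 85 in WT. Hsd3b1 was 3.68-fold higher in KK (95% interval 2.99 to 4.52; edgeR adjusted p = 1.8e-11), the fold nearest to that of Insl3 among the members past the test.

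Hsd3b6 (chromosome 3, 98805504 to 98814443, minus strand), the neighbouring enzyme gene, had 16.83 and 17.01 TPM in KK and 9.89 and 8.9 TPM in WT, from 373 and 352 counts in KK and 175 and 179 in WT. It was 1.93-fold higher in KK (95% interval 1.65 to 2.26; edgeR adjusted p = 3.9e-08). Hsd3b6 exceeded Hsd3b1 in TPM in each of the 4 libraries, by less in KK than in WT. The 95% intervals of their folds did not overlap, but the difference between the folds was not tested.

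Their transcripts are alike: 1294 of 1524 aligned bases (84.9%) were the same in Hsd3b1 and Hsd3b6. Of all 50-base stretches of the main transcript, 5.6% in Hsd3b1 and 16.1% in Hsd3b6 also occur in another annotated transcript, most often in Hsd3b2 for Hsd3b6, so their counts carry some uncertainty. Hsd3b2, Hsd3b3 and Hsd3b5 were listed at 0 in all 4 libraries. Hsd3b4 had 7.22 and 3.16 counts in KK and 0 and 1.26 in WT, and Hsd3b7, of bile acid synthesis, had 27 and 6.85 in KK and 8 and 0 in WT; neither was tested. Isoform shares differed between libraries of one genotype, though Hsd3b1-201 and Hsd3b6-201 held the largest share in every library. Hsd3b6-202 had 77.08 and 29.23 counts in KK and 0.26 and 67.08 in WT, so isoform shares of this gene were not stable between replicates.

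Cyp17a1, which carries out the 17α-hydroxylase and 17,20-lyase reactions that open the way to androgens, was the third most abundant of the 10 genes by TPM. Cyp17a1 (chromosome 19, 46667165 to 46673172, minus strand) had 46 and 45.28 TPM in KK and 28.71 and 34.14 TPM in WT, with counts of 1094 and 986 in KK and 598 and 755 in WT. The WT libraries differed more from each other than the KK libraries did, and the genotypes did not overlap. Cyp17a1 was 1.45-fold higher in KK (95% interval 1.29 to 1.64; log2 fold change 0.54 ± 0.08 SE; edgeR adjusted p = 5.6e-06). Its isoform Cyp17a1-201 held 97.75 to 98.63% of the gene's transcripts in every library, by the authors' estimate.

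Hsd17b3, the testicular enzyme of the last step to testosterone, was expressed at a low level. Hsd17b3 (chromosome 13, 64058266 to 64089230, minus strand) had 5.13 and 4.61 TPM in KK and 2.95 and 3.69 TPM in WT, from 66 and 54 counts in KK and 33 and 44 in WT. The KK values lay above the WT values, but the 1.47-fold difference did not pass the test (95% interval 0.987 to 2.19; edgeR adjusted p = 0.11).

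The regulators were also low. Nr5a1 (chromosome 2, 38692656 to 38714542, minus strand) had 3.31 and 2.79 TPM in KK and 1.73 and 1.66 TPM in WT, and counts of 136 and 106 in KK and 63 and 64 in WT. It was 1.79-fold higher in KK (95% interval 1.35 to 2.38; log2 fold change 0.84 ± 0.20 SE; edgeR adjusted p = 0.001). The call was lost with limma on log2 TPM (adjusted p = 0.055 and 0.065). Nr5a1 is expressed in Sertoli cells too.

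Lhcgr, the luteinising hormone receptor, had the fewest reads of the 10 genes. Lhcgr (chromosome 17, 88716481 to 88791990, minus strand) had 46 and 22 counts in KK and 4 and 20 in WT, and 1.52 and 0.37 TPM in KK against 0.04 and 0.98 TPM in WT. The genotypes overlapped in TPM. In counts the lower KK library was barely above the higher WT library. Its fold of 2.65 (95% interval 1.30 to 5.42; edgeR adjusted p = 0.024) lost its call without KK replicate 1 (1.80-fold, adjusted p = 0.32) and without WT replicate 1 (1.63-fold, adjusted p = 0.30), and was 7.51 without WT replicate 2. The isoform estimates swung as well: the retained-intron form Lhcgr-202, 653 bases against 6828 for Lhcgr-201, held 74.39 and 38.32% of Lhcgr transcripts in KK and 0 and 81.1% in WT, and the gene's TPM depends on that share.

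**Figure D3:**
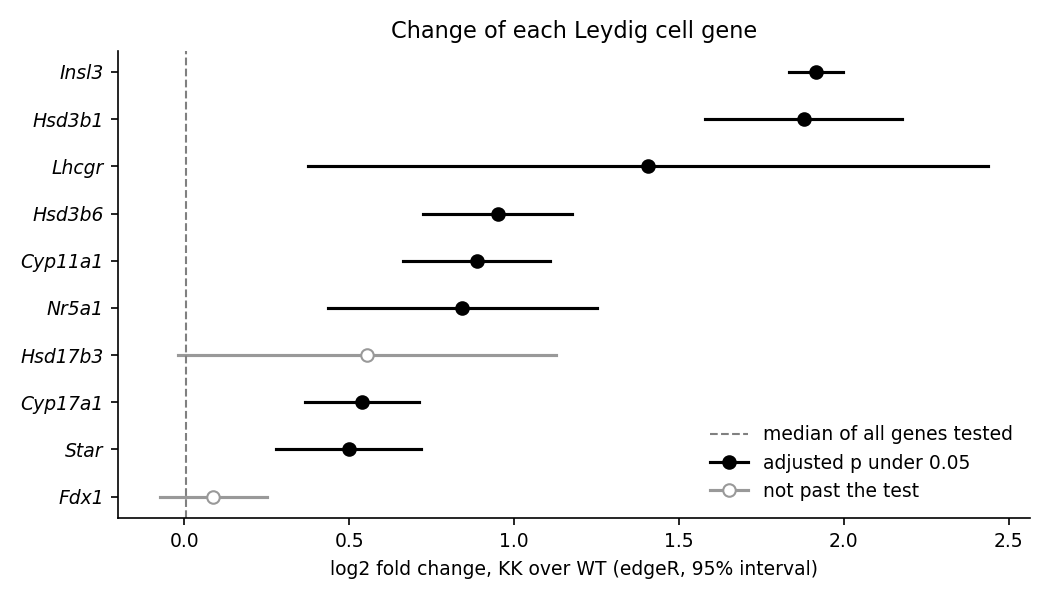
Log2 fold change (KK over WT) of each Leydig cell gene with its 95% interval from edgeR; filled points passed an adjusted p of 0.05, open points did not, and the dashed line is the median of all genes tested. The intervals of Insl3 and Hsd3b1 lie to the right of those of the other members except Lhcgr.

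The folds therefore differed among the 10 genes, with Insl3 at 3.77 and Hsd3b1 at 3.68 in one range and Star at 1.41, Cyp17a1 at 1.45, Nr5a1 at 1.79, Cyp11a1 at 1.85 and Hsd3b6 at 1.93 in a lower one. The ratio of Insl3 counts to a gene's counts within one library does not depend on scaling between libraries. For Hsd3b1 that ratio was 36.7 and 36.1 in KK and 37.5 and 33.9 in WT, overlapping. For Cyp17a1 it was 10.2 and 10.6 in KK and 4.27 and 3.81 in WT. Each of Star, Cyp11a1, Cyp17a1, Hsd3b6, Hsd17b3, Nr5a1 and Fdx1 had both KK ratios above both WT ratios. The mean ratio in KK was 1.95 to 3.55 times that in WT. These ratios restate the 3.77-fold rise of Insl3 beside the smaller folds of those genes. The ratio was not computed for all genes tested, so no share of all genes stands beside this count. With 2 libraries against 2, an exact two-sided permutation test of a ratio cannot go below p = 0.333.

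**Figure D4:**
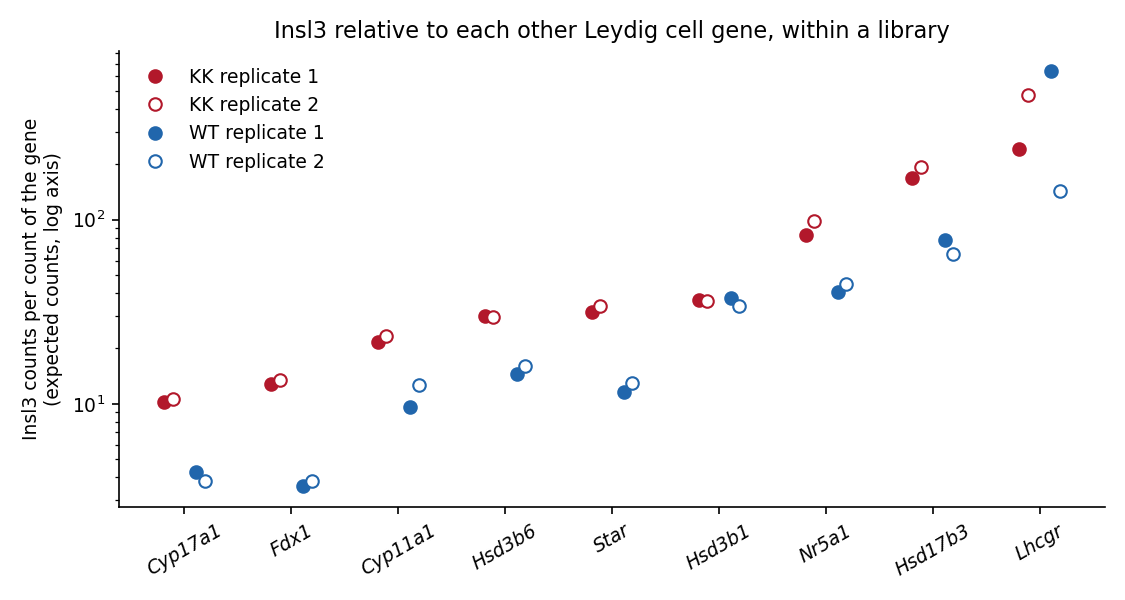
Insl3 counts divided by the counts of each other gene in the same library, on a log axis, with KK left of WT. For 7 of the 9 genes both KK ratios lie above both WT ratios. For Hsd3b1, at 36.7 and 36.1 in KK and 37.5 and 33.9 in WT, and for Lhcgr they overlap. The share among all genes tested was not computed.

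Summed, the 10 genes took 768.7 and 770.5 CPM of the plain library total in KK and 258.3 and 271.6 CPM in WT. Insl3 alone supplied 74.9 and 75.8% of the members' counts in KK and 54.4 and 55.1% in WT. Replicates of a genotype were close in both measures.

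Genes with the library profile most like that of Insl3 were found by the Euclidean distance between log2 CPM values centred on each gene's mean over the 4 libraries, among 10102 genes at a mean of at least 5 CPM. The 5 nearest outside the members were Agt (distance 0.10), which encodes angiotensinogen, Crip2 (0.13), Bhmt (0.14), an enzyme of methionine synthesis from betaine, the predicted gene Gm14367 (0.18) and Trpm6 (0.19), a magnesium channel. Hsd3b1 lay at 0.11, with 1 of the ranked genes outside the members nearer. Agt had 81.63 and 88.71 TPM in KK and 21.23 and 21.74 TPM in WT, a 3.97-fold difference. The remaining 4 differed by 3.46-fold (Crip2), 3.59-fold (Bhmt), 3.60-fold (Gm14367) and 4.27-fold (Trpm6). These distances rest on 4 libraries in 2 groups, so any gene with a like fold and close replicates ranks near.

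Leydig cell markers outside the 10 genes were mostly too low to test: 8 of 20 passed the filter. Of those 8, 5 (62.5%) were higher in KK and 0 were lower, against 22.0% and 21.7% of all genes tested. The list was chosen with earlier results of these data known. The summed level of the 20 markers was 264 and 261.2 TPM in KK and 50.4 and 48.3 TPM in WT. Most of it was Lcn2, the iron-binding lipocalin 2, with 226.6 and 226.0 TPM in KK and 31.55 and 32.2 TPM in WT (7.13-fold; 95% interval 6.41 to 7.92; edgeR adjusted p = 5.2e-22). Sult1e1, the estrogen sulfotransferase of Leydig cells, had 8.83 and 8.57 TPM in KK and 2.04 and 2.29 TPM in WT (4.01-fold). Vcam1 was 3.46-fold higher and the prolactin receptor Prlr 2.76-fold higher in KK. The 3 tested markers that did not pass were Srd5a1, Nr0b1 and Nr2f2 (log2 fold changes -0.139, 0.006 and -0.28).

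Genes that feed or follow the pathway were mixed. Of the steroid enzyme partners and paralogues, 34 were listed and 16 were tested. In KK 6 (37.5%) were higher and 1 (6.25%) was lower, against 22.0% and 21.7% of all genes tested. Their median log2 fold change was -0.00. Por, the electron donor of CYP17A1, had 7.62 and 8.96 TPM in KK and 4.53 and 4.56 TPM in WT, a 1.75-fold difference (edgeR adjusted p = 4.7e-06), whereas Fdxr, which reduces FDX1, stood at 1.22-fold with an edgeR adjusted p of 0.055. Cyb5b, a mitochondrial cytochrome b5, was 1.40-fold lower.

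In cholesterol supply, 7 of 24 tested genes (29.2%) were higher and 3 (12.5%) were lower in KK (median log2 fold change 0.16). Among all genes tested, 22.0% were higher and 21.7% lower. Apoe, the lipid carrier, was 3.03-fold higher, with 48.85 and 51.16 TPM in KK and 17.46 and 15.62 TPM in WT. Abca1, the cholesterol exporter, was 3.31-fold higher, and Scarb1, the receptor that takes up cholesterol from HDL, 1.28-fold higher. In cholesterol synthesis, 9 of 25 (36%) were higher and 2 (8%) lower (median 0.13). Cyp51, the lanosterol demethylase, was 2.0-fold higher, and Idi1, the isomerase of isoprenoid units, was 1.27-fold lower although its TPM overlapped between genotypes.

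In cAMP signalling below the receptor, 7 of 29 tested genes were higher and 7 lower (median 0.09), shares near those of all genes. Pde4a, which degrades cAMP, was 2.48-fold higher with 22.59 and 25.75 TPM in KK and 9.4 and 9.91 TPM in WT. Pde8a, another phosphodiesterase for cAMP, was 1.32-fold lower, as was the catalytic kinase subunit Prkaca (1.20-fold). Transcription regulators of steroidogenesis gave 5 higher and 5 lower of 21 (median -0.12). That is 23.8% each, near the 22.0% and 21.7% of all genes tested. Cebpb was 7.33-fold higher from few reads (65 and 91 counts in KK, 9 and 11 in WT; 95% interval 4.36 to 12.3), and Fos was 2.46-fold higher. Zfpm2 (FOG2), a cofactor of GATA factors, was 1.77-fold lower. Gata4, which passed at 1.70-fold with an adjusted p of 0.025, lost its call without KK replicate 1 or WT replicate 1 (adjusted p = 0.15 and 0.17).

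On the receiving side, 5 of 14 listed genes for INSL3, relaxin and sex steroid reception were tested. Of these 5, 3 (60%) were higher and 0 lower, against 22.0% and 21.7% of all genes tested. Rxfp2, the INSL3 receptor, had 25.45 and 27.24 TPM in KK and 24.85 and 23.22 TPM in WT, a fold of 1.10 that did not pass (95% interval 0.949 to 1.26; edgeR adjusted p = 0.31). Esr1, the estrogen receptor, was 3.01-fold higher from 37 and 49 counts in KK and 11 and 16 in WT. Insl6, a germ cell relative of Insl3, was 1.18-fold higher at 594.9 and 598.7 TPM in KK and 511.0 and 505.6 TPM in WT.

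Markers of other testis cells gave the following counts, to be read against the 22.0% higher and 21.7% lower among all genes tested. Of the peritubular and endothelial markers tested, 5 of 11 were higher and 0 lower, with summed levels of 10.9 and 12.8 TPM in KK and 6.9 and 6.2 TPM in WT. Of the macrophage and immune markers, 2 of 6 (33.3%) were higher and 0 lower (8.4 and 11.8 TPM in KK, 5.2 and 5.6 TPM in WT). Sertoli cell markers gave 1 higher (5.26%) and 5 lower (26.3%) of 19, the lower share being near that of all genes, at 408.8 and 415.2 TPM in KK and 307.8 and 328.8 TPM in WT. The riser was the prostaglandin D synthase Ptgds, at 191.3 and 187.3 TPM in KK and 73.0 and 73.8 TPM in WT. The rise of Ptgds in TPM exceeded that of the summed level, so the higher Sertoli sum in KK came from this gene. Inhbb and Cldn11 were 2.3-fold and 1.6-fold lower. Spermatogonial markers gave 8 higher and 1 lower of 13, among them Stra8 at 2.68-fold, with overlapping summed levels of 83.2 and 90.8 TPM in KK and 64.9 and 112.8 TPM in WT. The overlap came from Uchl1, at 32.0 and 33.0 TPM in KK and 17.89 and 66.22 TPM in WT; without it, a sum added after these values were seen, the levels were 51.2 and 57.9 TPM in KK and 47.0 and 46.6 TPM in WT. Pachytene spermatocyte markers gave 1 higher and 10 lower of 16, Piwil1 being 1.5-fold lower. Of the 8 adrenal and ovarian markers, 3 were tested, 1 higher and 1 lower, and Cyp11b2, Mc2r and Akr1c18 were listed at 0 in all 4 libraries. The riser was Cyp21a1, the adrenal 21-hydroxylase, named after its values were seen. It had 19 and 29 counts in KK and 7 and 5 in WT (3.74-fold; 95% interval 1.74 to 8.03; edgeR adjusted p = 0.005), and its call was lost without KK replicate 2 (adjusted p = 0.15) or WT replicate 2 (adjusted p = 0.069). The faller was the anti-Müllerian hormone receptor Amhr2, 1.2-fold lower (edgeR adjusted p = 0.04), which lost its call without KK replicate 1 (adjusted p = 0.052), KK replicate 2 (adjusted p = 0.10) or WT replicate 1 (adjusted p = 0.34). No Sertoli, peritubular, endothelial, macrophage or spermatogonial marker was at 0 in all 4 libraries. The part of these cell types in the Leydig cell result was not tested.

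**Figure D5:**
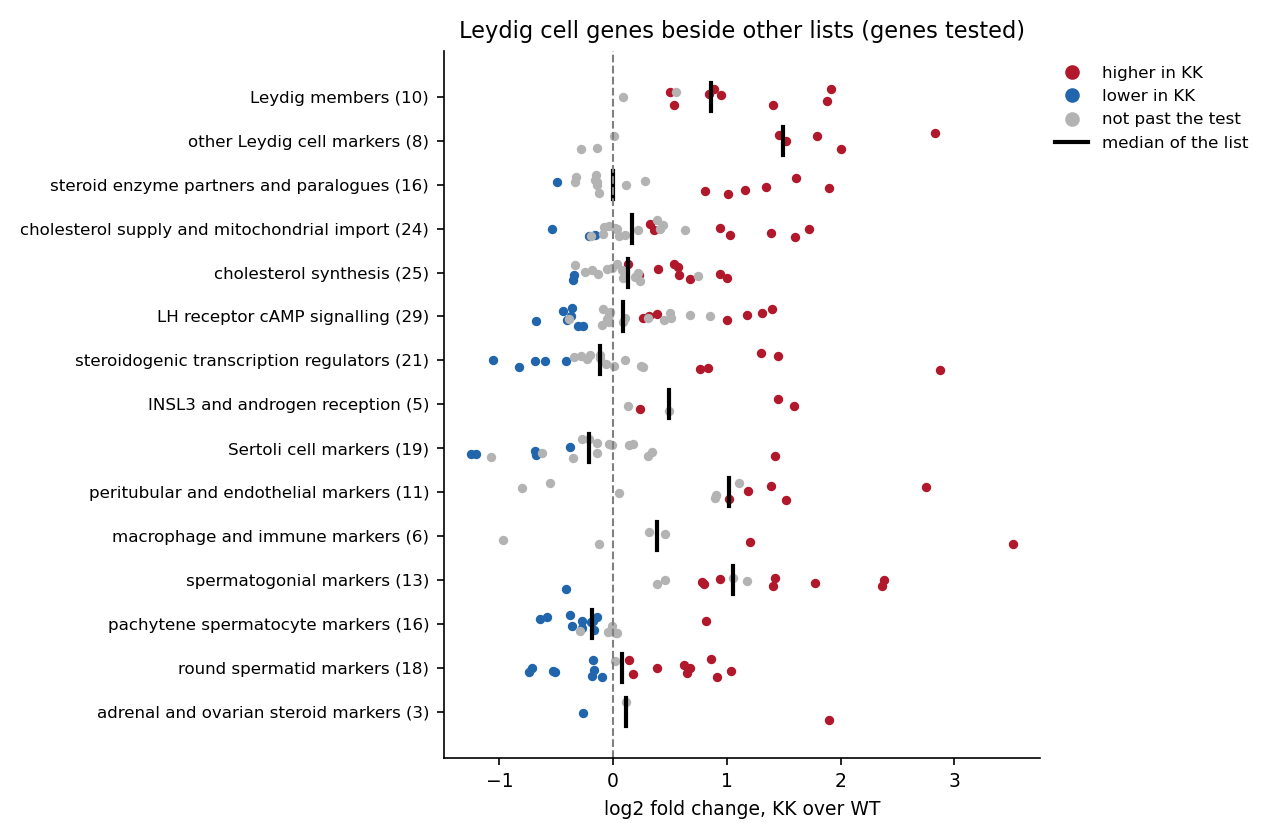
Log2 fold change (KK over WT) of every tested gene in each list, with a black bar at the median of the list and a dashed line at the median of all genes tested; the number tested stands in parentheses. Leydig cell genes have 8 of 10 points called higher and none lower, while cAMP signalling has 7 of each among 29.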

How the data were processed

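RNA-seq of pachytene spermatocytes was compared between 2 KK and 2 WT libraries. Bowtie, mm10 and GRCm38 appear in the submitters' processing notes. Which quantifier and annotation release were used is not given in the sources used here. Gene tables deposited by the authors hold expected counts, 6.08 to 6.70% of them not whole, and TPM, per the file headers. These deposited TPM divide counts by effective length and scale every library to one total. The percent of a gene's transcripts held by each isoform was used as deposited by the authors. The library kit does not mark strand.

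Of 55364 gene identifiers, 55104 were found in GENCODE M21; mitochondrial genes numbered 0. Expected counts were rounded and tested with edgeR 4.0.16 in R 4.3.3 (TMM, default filter, quasi-likelihood fit on genotype, Benjamini-Hochberg adjustment over 16571 genes at 0.05). The same procedure was run on counts simulated from the means and spread of these libraries. That run cannot show whether replicate libraries are technical, and its outcome is not reported here. CPM are on the TMM scale. Exonic and promoter sequences came from GENCODE M21 and RefSeq.

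Named genes were the 10 members, their isoforms with at least 5 counts, overlapping genes, Hsd3b paralogues, from each list the 3 genes with the smallest p in each direction at a mean of at least 1 CPM (not all are printed), the 5 genes nearest Insl3, and Ddx4. Rxfp2, Fdxr, Prlr, Gata4, Scarb1 and Cyp21a1 were added for their roles after their values were seen. Srd5a1, Nr0b1 and Nr2f2, the tested Leydig cell markers not past the test, are not among the 70 other named genes below. Ldhc, named for its part in a summed level after its values were seen, is not among those 70 either. The members and lists were chosen with earlier results of these data known. Some results are not reported here. Alternatives were other scaling factors, DESeq2 1.42.0, an effective length offset, limma 3.58.1 on log2(TPM + 1) and log2(TPM + 0.1), other filters, a replicate block and each library left out.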

Additional observations from a re-analysis of the deposited data

How the results depend on the processing

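With 2 libraries per genotype, genes with few counts, such as Lhcgr and Hsd17b3, are the least certain. Of the members, Insl3, Cyp11a1, Cyp17a1, Hsd3b1 and Hsd3b6 kept direction and call in all 15 alternatives; Insl3 ran from 1.86 to 2.0 on the log2 scale, Hsd3b1 from 1.63 to 2.0, Star from 0.45 to 0.58 and Lhcgr from 0.37 to 2.91. Hsd17b3 and Fdx1 were called in none.

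The count of genes called was 7237; it was 4662 with the effective length offset, 3826 with limma on log2(TPM + 1), 3758 with limma on log2(TPM + 0.1), and 5925 to 6552 with 1 library left out. The count of members higher in KK was 8; it was 5 with either limma setting, where Star, Nr5a1 and Lhcgr were lost, 7 with the effective length offset and with DESeq2, where Lhcgr was lost, and 7 to 8 with 1 library left out. Limma and DESeq2 differ from the main test in several ways at once, and the cause was not tested.

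The labels number the libraries 1 and 2 in both genotypes, but same-numbered libraries deviated in opposite directions (correlation -0.356 over 10109 genes). With 2 libraries per genotype, KK 1 thus deviated like WT 2, and KK 2 like WT 1. Whether a batch lies behind that pattern was not tested. With the replicate block 7309 genes and 8 members were called. A crossed pairing, added after the data were seen, called 7509 genes and 8 members.

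Of 1048 values for 70 other named genes, 961 kept direction and call, 79 lost the call and 4 gained it. Direction turned in 4: Uchl1 was -0.263 (log2) with the effective length offset, -0.09 and -0.084 with limma at pseudocounts of 1 and 0.1, and Jak3 was -0.009 without WT replicate 1 and 0.097 without WT replicate 2. Stard4, Aard, Amhr2, Acta2, C1qb and Cyp21a1 were among those that lost the call when 1 library was left out.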
